A study of Mus musculus with 4 samples.

Results

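The data describe 10 transcription factor genes whose products act across endothelial cell types. They are the ETS factors *Erg*, *Fli1*, *Ets1*, *Ets2* and *Elk3*, the SOXF factors *Sox7*, *Sox17* and *Sox18*, and the basic helix-loop-helix (bHLH) factors *Tal1* and *Lyl1*. They were picked out by gene symbol from the deposited expression table, which lists 18373 genes, and all 10 were among the 13628 genes that passed the filter on low counts. Liver sinusoidal endothelial cells (LSECs), the fenestrated lining cells of the liver capillaries, were isolated from livers of 8-week-old Balb/c mice. They were cultured for 24 h and transfected for 48 h with a control small interfering RNA (NC) or with small interfering RNA against the long non-coding RNA *Airn* (si*Airn*). RNA was taken at day 3 and sequenced as single-end reads of 50 bases. The study asked whether *Airn* maintains the differentiated state of these cells. Each group holds 2 libraries, and the labels number them as biological replicates 1 and 2. NC and si*Airn* cells shared strain, age, isolation and culture. Neither group carries an engineered allele. The titles of the si*Airn* libraries read siAirn1_1 and siAirn1_2, while the treatment protocol speaks of separate si*Airn* molecules. Which one each library received is therefore not settled. Nothing in the labels ties a library to an animal or to a pool of animals, and p-values here measure only the spread between these libraries.

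ETS factors bind DNA at a GGAA core, and *Erg*, *Fli1* and *Ets1* hold open many of the enhancers and promoters of endothelial genes such as VE-cadherin. SOXF factors bind ACAAT-like sites, act redundantly in arterial, venous and lymphatic development, and often share enhancers with ETS factors. TAL1 and its close relative LYL1 bind E-boxes (CAGNTG) with E proteins and the bridging protein LMO2, in blood and in endothelial progenitors.

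RefSeq promoters of the mouse build GRCm38.p6, from 250 bases before to 50 bases after a start site, were at hand for 5 of the 10 genes (*Erg*, *Ets2*, *Elk3*, *Tal1* and *Lyl1*). The 4 sequences below are shown because *Erg* and *Ets2* are neighbouring ETS genes with different values, and because *Elk3* and *Lyl1* are the other genes with a promoter at hand whose si*Airn* libraries both lay below both NC libraries. Of the 3 start sites listed for *Erg*, the one shown was chosen for the motifs it holds. They lie at chr16:95459299-95459598 on the minus strand (*Erg*), chr16:95702157-95702456 on the plus strand (*Ets2*), chr10:93311110-93311409 on the minus strand (*Elk3*) and chr8:84701207-84701506 on the plus strand (*Lyl1*). Each is written 5′ to 3′ in the direction of transcription, with the ETS core GGAA, or TTCC where it lies on the other strand, in capitals.
Erg: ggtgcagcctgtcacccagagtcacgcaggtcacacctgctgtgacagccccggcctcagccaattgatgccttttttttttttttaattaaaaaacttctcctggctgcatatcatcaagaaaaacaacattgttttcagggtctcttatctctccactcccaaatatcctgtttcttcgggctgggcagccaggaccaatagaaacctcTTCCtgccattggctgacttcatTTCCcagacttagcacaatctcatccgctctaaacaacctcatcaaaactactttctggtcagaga
Ets2: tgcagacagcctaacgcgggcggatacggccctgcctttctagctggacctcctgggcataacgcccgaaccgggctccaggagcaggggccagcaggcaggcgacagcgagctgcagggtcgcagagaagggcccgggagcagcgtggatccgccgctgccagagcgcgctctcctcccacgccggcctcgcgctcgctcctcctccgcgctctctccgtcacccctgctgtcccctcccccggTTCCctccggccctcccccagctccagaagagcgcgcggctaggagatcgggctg
Elk3: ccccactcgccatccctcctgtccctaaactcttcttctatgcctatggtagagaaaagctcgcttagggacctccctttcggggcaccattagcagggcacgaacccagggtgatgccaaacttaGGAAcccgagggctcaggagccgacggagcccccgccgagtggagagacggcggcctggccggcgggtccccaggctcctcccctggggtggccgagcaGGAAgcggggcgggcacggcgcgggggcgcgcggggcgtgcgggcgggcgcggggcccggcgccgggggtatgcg
Lyl1: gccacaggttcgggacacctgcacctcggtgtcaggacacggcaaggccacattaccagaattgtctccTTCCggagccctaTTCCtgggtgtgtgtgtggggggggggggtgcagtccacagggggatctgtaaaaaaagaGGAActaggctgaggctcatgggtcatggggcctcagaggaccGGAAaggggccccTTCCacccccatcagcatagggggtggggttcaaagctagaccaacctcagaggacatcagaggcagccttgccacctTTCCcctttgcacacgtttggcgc

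The letters GGAA occurred in 96.0% of 32851 promoters of this length on either strand. The extended form CCGGAA, which contains GGAA, occurred in 14.9% of promoters and CAGGAA, which also contains it, in 30.55%. The *Lyl1* promoter held 2 copies of CCGGAA, at 181 and 67 bases before the start, and 1 copy of CAGGAA. The *Erg* and *Elk3* promoters shown held 1 copy of CAGGAA each, 39 and 27 bases before the start, and the *Ets2* promoter held neither extended form. The SOX letters ACAAT (31.0% of promoters) occurred 2 times in the *Erg* promoter shown and 1 time in that of *Lyl1*. The E-box CAGNTG (51.4% of promoters) occurred 1 time in each of these 2 promoters, and the GATA letters AGATAA (11.2%) 1 time in that of *Erg*. The promoters at the other *Erg* start sites held 0 copies of either extended ETS form, of the SOX letters, of the E-box and of the GATA letters, so the shares over all promoters are no measure for the one picked by its motifs. These matches describe the letters in these windows and are not evidence of binding.

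The libraries held between 17308382 and 18371959 estimated counts. *Airn*, the targeted transcript, was counted 7 and 3 times in NC replicates 1 and 2 and 11 and 9 times in the libraries labelled si*Airn*. Scaled by library total (CPM), NC libraries averaged 0.287 ± 0.172 and those labelled si*Airn* 0.559 ± 0.0705 (SD, n = 2). The ratio was 1.97, and its 95% interval (exact binomial, counting error alone) ran from 0.880 to 4.71. A lower target level was not seen at this depth, and every direction below is between libraries as labelled. LSEC markers (10 genes, among them *Stab2*, *Lyve1* and *Oit3*) were present in all libraries and summed to between 3415 and 3453 CPM in NC and to between 2199 and 2419 CPM in the other group, where 9 of the 10 were called lower (adjusted p under 0.05 in edgeR's quasi-likelihood test over all genes, which is what called means throughout). *Lyve1* and *Stab1* of this list were named by the study from these libraries and are not independent evidence of its direction. The most abundant, *Oit3*, changed by -0.61 on the log2 scale. Over all genes tested, 8.56% were called lower and 8.27% higher. Markers of other cells were counted in the same way. Macrophage markers (8 of 16 called lower, *Lyz2* the most abundant) summed to between 262 and 331 CPM in NC and between 169 and 202 CPM in si*Airn*. All 15 that were tested had a negative log2 fold change (median -0.70). Stellate cell markers (4 of 12 called higher, *Tagln* the most abundant) went from 1732 to 2100 CPM in NC to 2023 to 2620 CPM in si*Airn*, with overlap. All 12 had a positive log2 fold change (median 0.39), and *Tagln* itself was not called (0.08, edgeR adjusted p = 0.733). Hepatocyte markers (2 of the 11 measured called higher, *Alb* the most abundant) went from 615 to 781 CPM to 865 to 1118 CPM. All 11 had a positive log2 fold change (median 0.39), and *Alb* itself was not called (0.50, edgeR adjusted p = 0.0598). Lymphocyte markers (*Cd3e* the most abundant) were at 4.53 and 4.79 CPM in NC and at 6.47 and 6.73 CPM in si*Airn*. Over the 4 libraries, platelet markers (mainly *Pf4*) lay between 16.0 and 21.6 CPM and cholangiocyte markers (mainly *Krt19*) between 30.5 and 34.1 CPM. Neutrophil and monocyte markers (mainly *Ly6c2*, with *Camp* and *Mpo* at 0) lay between 4.37 and 6.55 CPM. Erythroid and mast cell markers summed to between 196 and 217 CPM, of which *Kit* alone gave 192 to 213 CPM. That sum is therefore close to a reading of *Kit* alone. Of the genes measured, 3 of 12 lymphocyte, 5 of 9 platelet and 2 of 9 neutrophil and monocyte genes were tested. So were 5 of 6 cholangiocyte and 2 of 7 erythroid and mast cell genes. None of those tested was called in edgeR's quasi-likelihood test. *Cd3e* was called, higher, in edgeR's likelihood-ratio test (adjusted p = 0.0282) and in limma on log2(FPKM + 1) (0.0414). *Krt19* was called, higher, after a correction for GC content and length (edgeR adjusted p = 0.0290). It was the 1 tested cholangiocyte gene with a positive log2 fold change, while 4 had a negative one (median of all 5, -0.20). An unadjusted p under 0.05 in edgeR was reached by 2 lymphocyte genes and 1 cholangiocyte gene, and by 4631 of all 13628 genes. In bulk RNA, fewer cells of a type and less RNA per cell cannot be told apart, and the part of these shifts in the results below was not tested.

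Levels of different genes can be set side by side as FPKM, which scales reads by transcript length and library total, and on that scale the factors differed widely. *Sox18* had the highest mean level in NC (99.9 FPKM), followed by *Ets1* (67.2), *Elk3* (61.4), *Ets2* (57.8), *Sox7* (57.4), *Fli1* (50.3), *Erg* (41.6), *Sox17* (31.8), *Tal1* (11.0) and *Lyl1* (3.52). In that order the ranges over the NC libraries of *Elk3* and *Ets2*, of *Ets2* and *Sox7*, and of *Sox7* and *Fli1* overlapped. In si*Airn* the order of mean FPKM was *Ets1* (87.1), *Ets2* (63.3), *Sox18* (58.0), *Elk3* (52.1), *Fli1* (48.6), *Sox7* (44.0), *Erg* (31.6), *Sox17* (28.3), *Tal1* (11.2) and *Lyl1* (2.24). The neighbours *Ets2* and *Sox18*, *Sox18* and *Elk3*, *Elk3* and *Fli1*, *Fli1* and *Sox7*, and *Erg* and *Sox17* overlapped there. *Sox18* thus moved from rank 1 to rank 3 among the 10 factors and from rank 943 to rank 1638 among all genes by mean FPKM, while *Ets1* moved from rank 1453 to rank 1056.

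**Figure D1:**
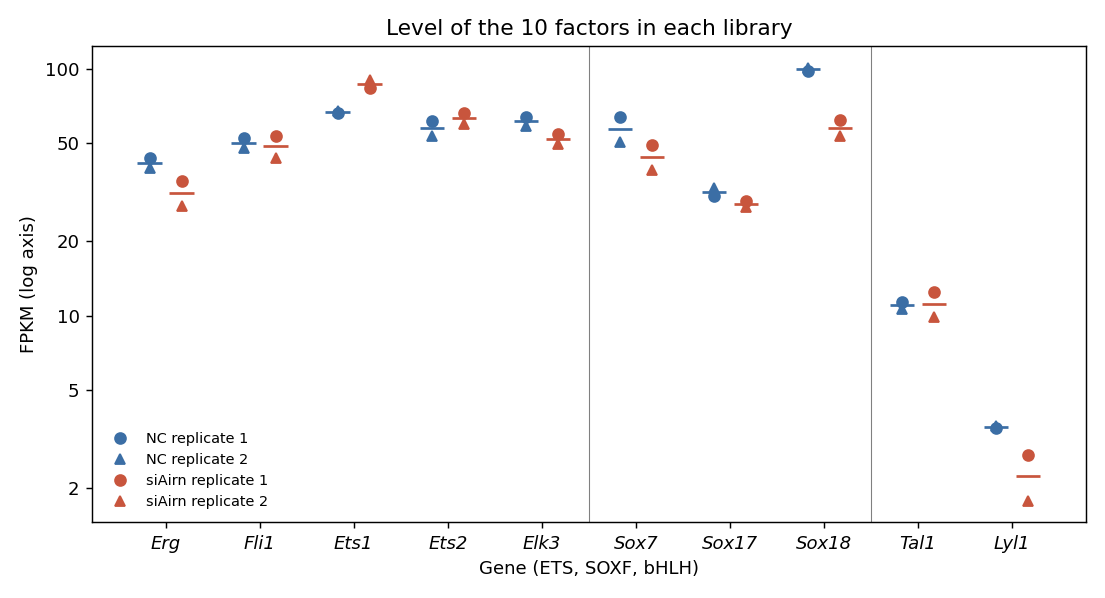
FPKM (log axis) of each factor in the 4 libraries, with NC in blue and si*Airn* in red, replicate 1 as circles and replicate 2 as triangles, and a bar at each group mean. *Sox18* went from 98.1 and 102 FPKM in NC to 62.4 and 53.6 FPKM in si*Airn*, while the points of *Fli1*, *Ets2* and *Tal1* overlapped between groups.

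Between groups, 8 of the 10 factors had a lower and 2 a higher mean CPM in si*Airn*. *Tal1*, lower in CPM by very little, was slightly higher in FPKM. With edgeR's quasi-likelihood test and Benjamini-Hochberg adjustment over all 13628 genes, 4 of the 10 had an adjusted p under 0.05, where 16.8% of all genes did. *Sox18*, *Erg* and *Elk3* fell (8.56% of all genes were called lower) and *Ets1* rose (8.27% were called higher). Past the threshold of the study, a fold change over 1.4 with an unadjusted p under 0.05, lay *Sox18* and *Lyl1*, both lower, against 9.96% of all genes. The CPM of the groups did not overlap for 7 of the 10, against 62.7% of all genes. The median log2 fold change of the factors was -0.23, beside 0.00 for all genes tested. Leaving out NC replicate 1 or NC replicate 2 left 35 and 0 genes called among all genes (3075 had an unadjusted p under 0.05 in the latter), and none of the 10 factors was called in either fit. Without si*Airn* replicate 1, 6 factors were called among 2332 of the 13628 genes, and without si*Airn* replicate 2, 1 was among 1384. Over 12905 genes the log2 fold change had a Spearman correlation of -0.33 with GC content and of 0.36 with transcript length. The cause of this trend was not tested. The correction for GC content and transcript length kept the calls of *Sox18* and *Elk3* and ended those of *Erg* and *Ets1*, whose changes then were -0.40 and 0.23.

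**Figure D2:**
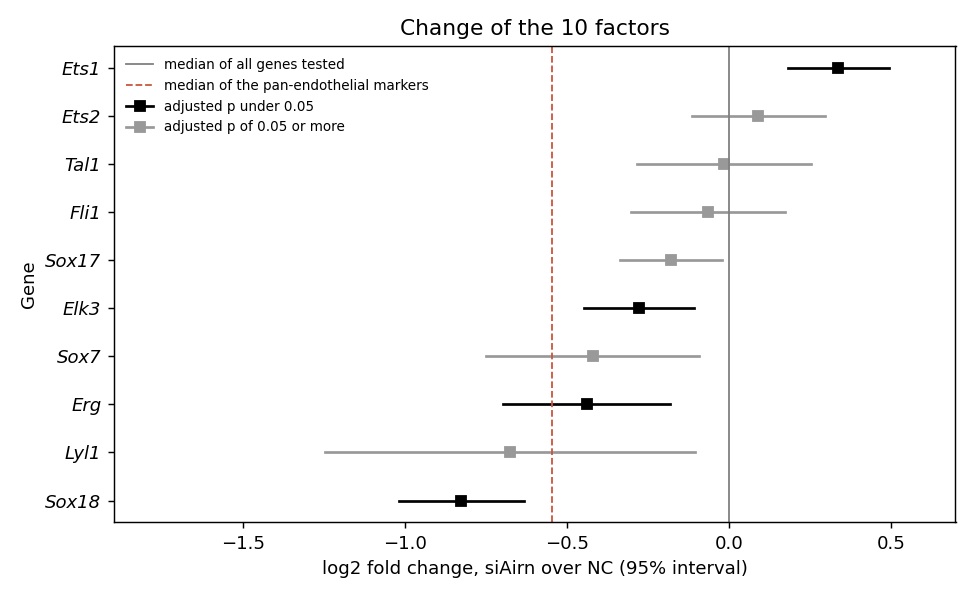
log2 fold change of si*Airn* over NC for each factor, with its 95% interval from edgeR (black where the adjusted p was under 0.05, grey otherwise). The solid line is the median of all genes tested and the dashed line the median of 13 pan-endothelial markers, -0.55, which lies inside the intervals of *Sox7*, *Erg* and *Lyl1*.

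Among the ETS factors, *Erg* and *Elk3* fell, *Ets1* rose, and *Fli1* and *Ets2* passed no test. *Erg*, which keeps endothelial cells quiescent and their junctions closed, measured 134 and 123 CPM in NC replicates 1 and 2 and 105 and 84.4 CPM in si*Airn* replicates 1 and 2. Both si*Airn* libraries lay below both NC libraries, with replicate 2 lowest. The means were 128 ± 8.30 and 94.7 ± 14.5 CPM (SD, n = 2), a log2 fold change of -0.44 (SE 0.11, 95% interval -0.70 to -0.18, edgeR adjusted p = 0.0366). Without si*Airn* replicate 2 it was -0.29 (edgeR adjusted p = 0.0805), without NC replicate 1 or 2 the adjusted p of edgeR was 0.186 and 0.142, after the GC and length correction it was 0.0648 with a change of -0.40, and in limma on log2(FPKM + 1) it was 0.0716.

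*Elk3*, a ternary complex partner of SRF that represses transcription until phosphorylated and works in angiogenesis, measured 262 and 244 CPM in NC and 217 and 200.3 CPM in si*Airn*. The groups were apart, with a gap wider than the range within either. The means were 253 ± 13.04 and 209 ± 11.9 CPM, a log2 fold change of -0.28 (SE 0.07, 95% interval -0.45 to -0.11, edgeR adjusted p = 0.0417). Leaving out si*Airn* replicate 2 gave an edgeR adjusted p of 0.15, NC replicate 1 of 0.195 and NC replicate 2 of 0.136, and limma on log2(FPKM + 1) gave 0.0812. In the annotation 6.95% of the exonic bases of *Elk3* lie opposite exons of *Cdk17*. The use of strand in counting is not given in the sources used here, so some *Elk3* reads may belong to *Cdk17*.

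*Ets1*, which is induced in angiogenic endothelium and by growth factor signalling, was the factor that rose. It measured 332 and 337 CPM in NC, nearly the same in both, and 405 and 441 CPM in si*Airn*, with replicate 2 highest. The means were 335 ± 3.86 and 423 ± 25.3 CPM, a log2 fold change of 0.34 (SE 0.07, 95% interval 0.18 to 0.49, edgeR adjusted p = 0.0203). It was 0.28 without si*Airn* replicate 2 (edgeR adjusted p = 0.0636) and 0.23 after the GC and length correction (edgeR adjusted p = 0.0742), and without NC replicate 1 or 2 edgeR gave adjusted p of 0.119 and 0.134.

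*Fli1*, the closest relative of *Erg*, measured 160.0 and 147 CPM in NC and 161 and 133 CPM in si*Airn*. The groups overlapped, with the highest and the lowest value both in si*Airn*, and the log2 fold change was -0.06 (95% interval -0.30 to 0.17, edgeR adjusted p = 0.689). *Ets2*, a target of RAS and MAP kinase signalling, measured 215 and 188 CPM in NC and 225 and 205 CPM in si*Airn*. Its groups also overlapped, and its log2 fold change was 0.09 (95% interval -0.12 to 0.30, edgeR adjusted p = 0.501). These intervals leave room for changes of about the size seen in *Elk3* for *Fli1* and of nearly the size seen in *Ets1* for *Ets2*.

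The summed FPKM of the 5 ETS factors differed little, with means of 278 ± 14.5 (NC) and 283 ± 15.6 (si*Airn*) and overlap between groups. *Ets1* made up 23.1% and 25.2% of the sum in the NC libraries and 28.6% and 33.2% in the si*Airn* libraries. *Erg* went from 15.1% and 14.8% to 12.0% and 10.3%, and *Elk3* from 22.1% and 22.0% to 18.5% and 18.3%. The share of *Ets2* was 21.5% and 20.03% in NC and 22.7% and 22.1% in the other group. These 4 shares did not overlap between groups (62.7% of all single genes did not in CPM), and that of *Fli1* did. Shares of 1 sum move against each other by construction.

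*Erg* and *Ets2* lie next to each other on chromosome 16 and *Ets1* and *Fli1* on chromosome 9, with 0 protein-coding genes between the members of each pair in the RefSeq annotation of GRCm38.p6. The log2 ratio of *Erg* to *Ets2* in FPKM was -0.50 and -0.44 in NC and -0.92 and -1.10 in si*Airn*. The log2 ratio of *Ets1* to *Fli1* was 0.35 and 0.49 in NC and 0.65 and 1.05 in si*Airn*. The difference, si*Airn* minus NC, was -0.54 for *Erg* over *Ets2* and 0.43 for *Ets1* over *Fli1*, and other gene pairs were not compared. A two-sided exact permutation test gave p = 0.333 for each, the smallest that 2 against 2 libraries allow.

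All 3 SOXF factors had lower means in si*Airn*, and 1, *Sox18*, passed the adjusted test. *Sox18*, which drives lymphatic and vascular specification, measured 149 and 155 CPM in NC and 91.5 and 79.7 CPM in si*Airn*. The groups were far apart next to the spread within each. The means were 152 ± 4.13 and 85.6 ± 8.37 CPM, so si*Airn* held 0.564 times the NC level (log2 fold change -0.83, SE 0.08, 95% interval -1.02 to -0.63, edgeR adjusted p = 0.00496). Leaving out each library in turn kept the change between -0.93 and -0.73, but with NC replicate 1 or 2 left out edgeR gave adjusted p of 0.0652 and 0.0869. The longest *Sox18* transcript is 60.9% GC, in the top quintile of genes by GC content, where the median log2 fold change was -0.14. After correction for GC content and length its change was -0.60 (edgeR adjusted p = 0.0132).

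*Sox7*, which is active early in haemogenic and vascular endothelium, measured 204 and 161 CPM in NC and 152 and 121 CPM in si*Airn*. The groups did not overlap, but NC replicate 2 was close to si*Airn* replicate 1. The means were 183 ± 30.3 and 137 ± 21.4 CPM, a log2 fold change of -0.42 (SE 0.14, 95% interval -0.75 to -0.09, edgeR adjusted p = 0.0794). DESeq2 gave an adjusted p of 0.0211, edgeR's likelihood-ratio test 0.0257, and edgeR without si*Airn* replicate 1 gave 0.0108 with a change of -0.59. Without NC replicate 1 the change was -0.24 (edgeR adjusted p = 0.344) and without si*Airn* replicate 2 it was -0.27.

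*Sox17*, a factor of arterial identity, measured 111 and 117 CPM in NC and 103 and 98.4 CPM in si*Airn*. The groups were apart by a small margin, and the log2 fold change was -0.18 (SE 0.07, 95% interval -0.34 to -0.02, edgeR adjusted p = 0.110). Of its exonic bases, 16.9% lie opposite exons of *Gm37587*. If strand was not used, some *Sox17* reads may belong to that gene, and how many was not tested. After the GC and length correction its change was -0.10.

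The summed FPKM of the SOXF factors was 193 and 185 in NC and 141 and 120.03 in si*Airn*, means of 189 ± 5.54 and 130.35 ± 14.6. *Sox18* gave 50.8% and 54.9% of it in NC and 44.4% and 44.6% in si*Airn*. *Sox17* gave 15.9% and 17.8% against 20.7% and 22.9%. These shares did not overlap between groups, but as parts of 1 sum they are tied, and the CPM of *Sox17* itself was lower. The share of *Sox7*, from 27.3% to 34.9% over the 4 libraries, did.

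Neither bHLH factor passed the adjusted test. *Tal1*, a factor of blood and endothelial specification, measured 47.2 and 44.8 CPM in NC and 50.6 and 40.4 CPM in si*Airn*. The si*Airn* libraries lay on either side of the NC libraries, and the log2 fold change was -0.02 (SE 0.11, 95% interval -0.28 to 0.25, edgeR adjusted p = 0.938). *Lyl1*, its paralogue, which acts in adult blood stem cells and in the stability of new vessels, was counted 99 and 107 times in NC against 80 and 51 times in si*Airn*, or 5.78 and 5.91 CPM against 4.43 and 2.88 CPM. It was the least abundant of the 10. The NC libraries nearly coincided, the si*Airn* libraries were lower and differed widely from each other, and the log2 fold change was -0.68 (SE 0.24, 95% interval -1.25 to -0.10, edgeR adjusted p = 0.0986). It was -1.02 without si*Airn* replicate 1 (edgeR adjusted p = 0.0276) and -0.40 without si*Airn* replicate 2 (edgeR adjusted p = 0.322). *Lyl1* also lies in the top quintile by GC content (62.6%), and after the GC and length correction its change was -0.45.

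The other members of these families covered a range of levels that overlaps that of the factors above. Of 21 other ETS genes that were measured, 14 were tested, and 2 were called higher and 1 lower (16.8% of all genes were called in either direction), with a median log2 fold change of 0.09. *Etv1*, of the PEA3 group, went from 4.46 ± 0.372 to 8.30 ± 0.00878 CPM (log2 fold change 0.90, edgeR adjusted p = 0.0165), and *Etv3*, a repressor, from 32.5 ± 2.77 to 40.8 ± 0.284 CPM (0.33, edgeR adjusted p = 0.0467). *Spi1*, the PU.1 factor of macrophages, fell from 9.47 ± 0.359 to 4.92 ± 0.557 CPM (-0.95, edgeR adjusted p = 0.0138) in the same libraries in which the macrophage markers were lower. The call of *Etv3* was lost in DESeq2 (adjusted p = 0.123) and in edgeR without any single library. Without NC replicate 1 or 2, the calls of *Spi1* (at -0.98 and -0.91) and *Etv1* (at 0.98 and 0.81) were lost too. After the GC and length correction 1 of the 3 calls, that of *Spi1*, was kept, at -0.75. *Etv1* was then at 0.64 (edgeR adjusted p = 0.0533) and *Etv3* at 0.18. The most abundant other ETS gene, *Elf1*, was at 0.10 (edgeR adjusted p = 0.478). Of 16 other SOX genes 13 were measured and 7 tested, with 0 called by edgeR or DESeq2. An unadjusted p under 0.05 in edgeR was reached by 0 of the 7, and by 4631 of all 13628 genes. The largest change was that of *Sox11*, at 0.600 CPM (NC) and 1.23 CPM (si*Airn*), with an edgeR adjusted p of 0.153. *Sox4*, the most abundant of these SOX genes at 455 ± 23.0 CPM (NC) and 467 ± 38.6 CPM (si*Airn*), was at 0.04 (edgeR adjusted p = 0.756).

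**Figure D3:**
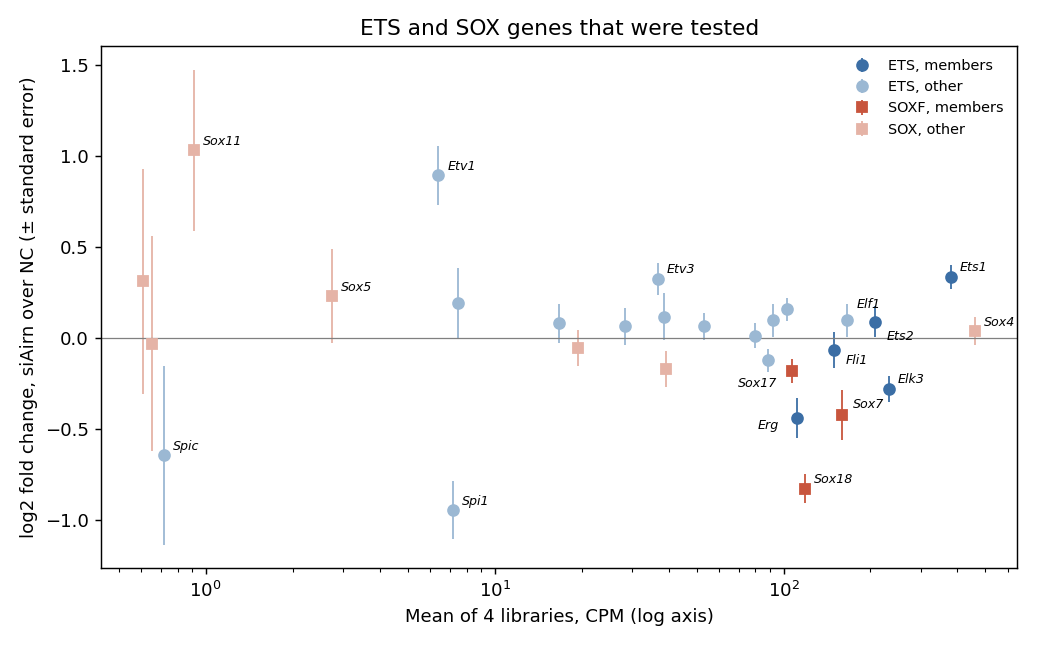
log2 fold change (± standard error) against mean CPM of the 4 libraries (log axis) for the ETS genes (circles) and SOX genes (squares) that were tested, with the factors described here in dark and the other family members in light colours. *Spi1* lies lowest at -0.95 among the ETS genes and *Sox18* lowest at -0.83 among the SOX genes, and *Sox4* lies near 0 at the highest level.

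Partners and inhibitors of the bHLH factors were lower where they were called. Of 15 genes of the TAL1 complex and of the Id family, 14 were tested, and 0 were called higher and 5 lower (8.27% and 8.56% of all genes), with a median of -0.24. *Lmo2*, the bridge between TAL1 and GATA factors, fell from 116 ± 8.996 to 85.8 ± 14.3 CPM (log2 fold change -0.44, edgeR adjusted p = 0.0462). The other 4 are the Id genes, whose products block E proteins and respond to BMP signalling. *Id4* fell from 144 ± 14.4 to 76.7 ± 4.596 CPM (-0.91, edgeR adjusted p = 0.00496), *Id2* from 57.1 ± 7.76 to 39.3 ± 2.78 CPM (-0.54, edgeR adjusted p = 0.0216), *Id1* from 30.9 ± 3.11 to 21.3 ± 1.85 CPM (-0.54, edgeR adjusted p = 0.0232), and *Id3* by 0.34 (edgeR adjusted p = 0.0177). After the GC and length correction 3 genes of the list were called lower, *Id4*, *Id2* and *Tcf4*, and without si*Airn* replicate 2 also 3. *Lmo2* was not among them in either fit, at -0.26 and -0.28 (edgeR adjusted p = 0.225 and 0.102). Without si*Airn* replicate 1, 7 genes of the list were called lower and 1 higher, without NC replicate 1, 1 was called, and without NC replicate 2, 0. The E protein gene *Tcf4*, the most abundant of this list, was at -0.23 (edgeR adjusted p = 0.0621). After the GC and length correction *Tcf4* was at -0.53 (edgeR adjusted p = 0.0103) and *Id1* at -0.32 (edgeR adjusted p = 0.0964). *Gata1*, which marks red cell and platelet precursors, had 0 counts in both NC libraries and a mean of 0.0848 CPM in si*Airn*, under the 3-count floor of 0.166 to 0.175 CPM. Of 10 other partner factors (among them *Srf*, *Mef2c*, *Foxo1* and *Hif1a*) all were tested, with a median of 0.00. An unadjusted p under 0.05 in edgeR was reached by 2 of them (*Mkl1* and *Mef2c*), and by 4631 of all 13628 genes. By edgeR or DESeq2, 0 of the partner factors were called. In edgeR, 2 were called without si*Airn* replicate 1 (1 higher, 1 lower) and 1, lower, after the GC and length correction. The most abundant, *Hif1a*, was at 0.15 (edgeR adjusted p = 0.217).

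Of 31 genes widely described as targets of ETS or SOXF factors, all tested, 14 were called lower and 3 higher, with a median of -0.39, beside 8.56% and 8.27% of all genes. Without NC replicate 1 or NC replicate 2, 2 and 0 were called, and after the GC and length correction 10 were called lower and 2 higher. All 13 pan-endothelial markers are in this list and hold 10 of the 14 lower calls. The other 4 are *Plvap*, *Flt4*, *Nos3* (-0.55, edgeR adjusted p = 0.0302) and *S1pr1* (-0.40, edgeR adjusted p = 0.0427), beside the 3 higher calls. Of these, *Flt4* was named by the study from these libraries, so it is not independent evidence of a direction. *Plvap* forms the diaphragms of fenestrae, which the study describes as absent from LSECs under physiological conditions. *Plvap* fell from 474 ± 64.5 to 224 ± 17.4 CPM (log2 fold change -1.08, edgeR adjusted p = 0.00496). *Cldn5*, a tight junction gene, changed by -0.82 (edgeR adjusted p = 0.00574), the adhesion gene *Icam2* by -0.76 (edgeR adjusted p = 0.00533) and the TGF-beta co-receptor gene *Eng* by -0.67 (edgeR adjusted p = 0.00496). In the other direction *Fzd4*, a Wnt and norrin receptor, rose from 50.0 ± 2.80 to 81.4 ± 7.29 CPM (0.70, edgeR adjusted p = 0.00705), and *Efnb2* (0.46) and *Vcam1* (0.35) were also called higher. Of the vascular growth factor and angiopoietin receptor genes in the list, *Flt4* (-0.58, edgeR adjusted p = 0.00683) and *Tie1* (-0.58, edgeR adjusted p = 0.0168) fell, and *Flt1* (-0.03), *Kdr* (0.02) and *Tek* (-0.05) passed no test.

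With a negative log2 fold change in 12 of 13 pan-endothelial markers, the factors were also set against the markers' summed counts in the same library. That sum went from 11571 and 12193 CPM in NC to 7736 and 8843 CPM in si*Airn*, a change of -0.52 on the log2 scale, and 10 of the 13 were called lower (median -0.55). On this scale the median of all genes tested moved to 0.52. Relative to the markers, 6 of the 10 factors were higher in both si*Airn* libraries than in both NC libraries, 1 was lower and 3 overlapped. Of all genes tested, 82.2% were higher in this sense, 2.22% were lower and 15.6% overlapped, so the 6 higher factors are not a result about these genes. The median log2 difference of the factors was 0.29. *Ets1* stood highest at 0.86, followed by *Ets2* (0.62), *Tal1* (0.50), *Fli1* (0.45), *Sox17* (0.34) and *Elk3* (0.24). *Sox18* was the factor below the markers in both si*Airn* libraries, at -0.31. *Erg* (0.08), *Sox7* (0.10) and *Lyl1* (-0.19) overlapped between groups. This scaling raises every gene alike by 0.52, so a factor between -0.52 and 0 on the scale of library totals takes the other sign by construction, as *Erg*, *Elk3*, *Fli1*, *Sox7*, *Sox17* and *Tal1* do. With *Pecam1* or *Cdh5* alone as the reference, the median was 0.31 and 0.35. All 13 markers are among the 31 genes listed as targets of ETS or SOXF factors, so their sum is not an independent reference. Nor did the markers change alike, with *Kdr* at 0.02, *Tek* at -0.05 and *Eng* at -0.67. The ratio is therefore not a level per endothelial cell.

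**Figure D4:**
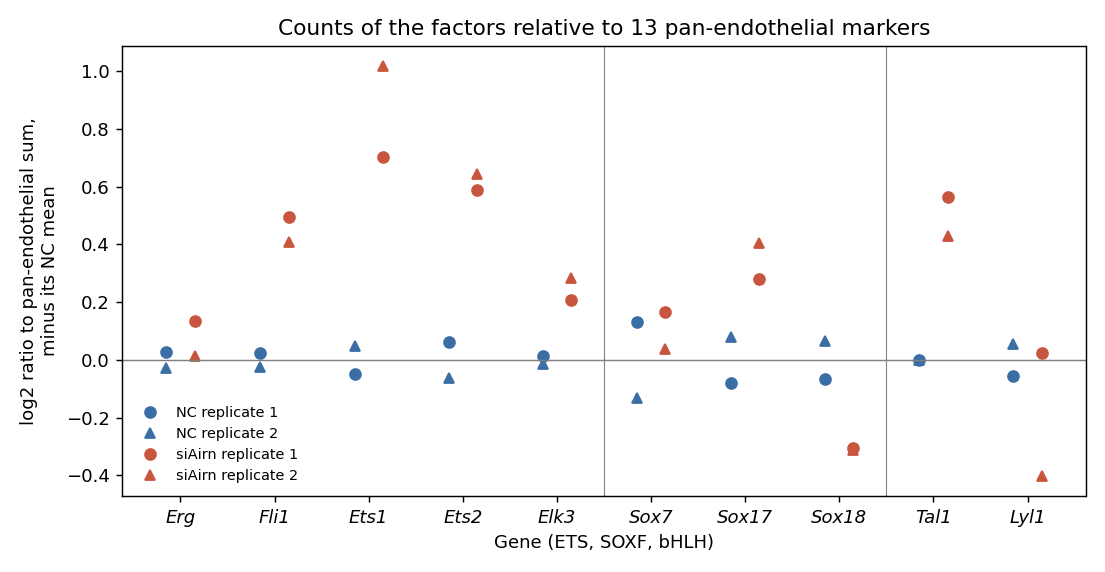
log2 ratio of each factor to the summed counts of 13 pan-endothelial markers in the same library, minus the NC mean of that ratio (symbols as in the plot of FPKM). *Ets1* lies highest, with a mean difference of 0.86, and *Sox18* is the gene for which both si*Airn* points lie below both NC points.

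By the distance between log2 CPM profiles over the 4 libraries, each centred on its mean, the genes most like *Erg* out of 9550 genes averaging 10 CPM or more were *Spats2l* (distance 0.0202), *Lmo2* (0.0259) and *Fam149b* (0.0318), and 57 genes lay within 0.1. For *Sox17* they were *Tbc1d20* (0.00768), *2310011J03Rik* (0.0114) and *Dcaf15* (0.0155), with 661 genes within 0.1. With 4 libraries in 2 groups, such likeness is a description of these profiles only.

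**Figure D5:**
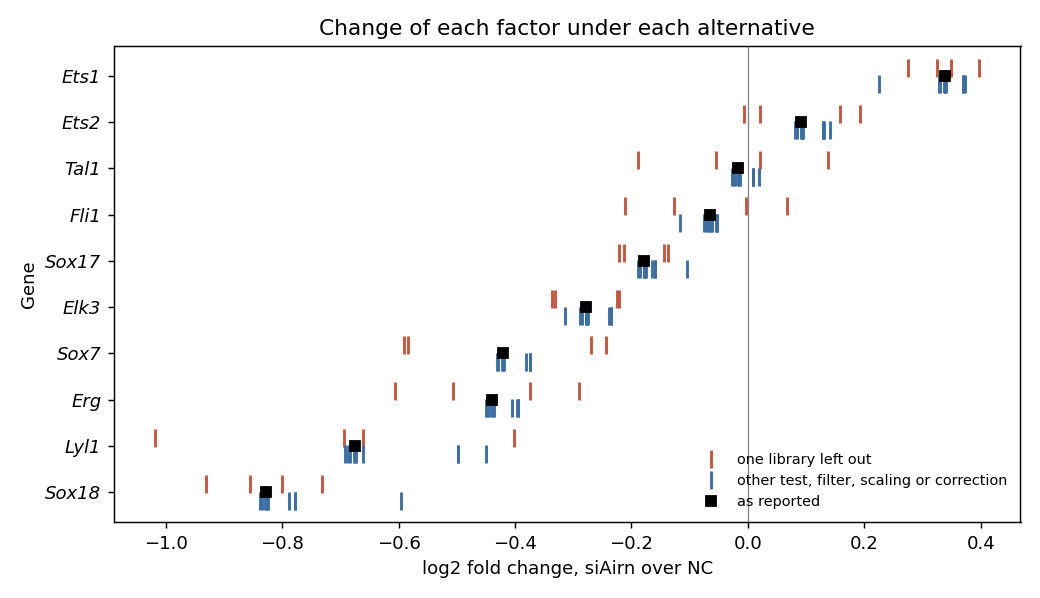
log2 fold change of each factor as reported (black squares), with one library left out (red ticks) and under the other tests, filters, scalings and corrections (blue ticks). *Sox18* and *Ets1* stayed on their side of 0 throughout, from -0.93 to -0.60 and from 0.23 to 0.40. So did *Erg*, *Elk3*, *Sox7*, *Sox17* and *Lyl1*, while *Tal1*, *Fli1* and *Ets2* fell on both sides.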

How the data were processed

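RNA-seq libraries of cultured LSECs were used, 2 NC and 2 si*Airn*, grouped by label. The authors deposited 1 table with an estimated count per gene and library, not normalized and not always a whole number. It also holds a second value whose unit the header does not name. That value, deposited by the authors, was read as FPKM, since it scales with count, transcript length and library total. Group averages in the table were not used. The submitters' processing notes name RSEM, Bowtie2, BWA and the build hg19, a human build, although the samples are mouse. Their roles, the annotation, the filters and the use of strand are not given in the sources used here.

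After rounding of the counts, edgeR 4.0.16 was run in R 4.3.3 (TMM factors 0.985 to 1.02, default filterByExpr, glmQLFit with glmQLFTest, no covariate, Benjamini-Hochberg adjustment over 13628 genes). Replicates of a group differed by more than sampling noise (chi-square per degree of freedom 6.38 in NC and 8.51 in si*Airn*), so none was treated as a duplicate. GC content and transcript length came from GENCODE M21 for 12905 genes (94.7% of those tested), promoters from RefSeq (GRCm38.p6). The same annotation gave the share of 50-base windows that a factor gene shares with others, 5.90% for *Elk3*, 15.0% for *Sox17* and under 0.3% for the rest. Calculations were tested on simulated data.

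All 10 factors are named. From 5 other lists, up to 4 called genes of at least 5 CPM with the largest change and the most abundant gene were named by rule, and from each of 10 marker lists the most abundant gene. *Id3*, *Efnb2*, *Vcam1*, *Flt1*, *Flt4*, *Kdr*, *Tek*, *Tie1*, *Nos3*, *S1pr1*, *Gata1*, *Sox11*, *Mkl1* and *Mef2c* were added after their values were seen. The members and the lists were chosen with earlier results of these data known. Alternatives were DESeq2 1.42.0, upper-quartile scaling, no filter beyond 1 count, at least 10 counts in every library, the likelihood-ratio test, limma 3.58.1 on log2(FPKM + 1) and log2(FPKM + 0.1) with a mean FPKM of at least 1 and with no filter, a replicate block, a correction for GC content and length, *Pecam1* or *Cdh5* as reference, and leaving out each library.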

Additional observations from a re-analysis of the deposited data

How the results depend on the processing

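The median change of the 10 factors stayed between -0.28 and -0.18 under every alternative, and the median relative to pan-endothelial markers was 0.31 with *Pecam1* and 0.35 with *Cdh5* alone. Counts moved more. Of all genes, 2294 had an adjusted p under 0.05 in edgeR, 1063 after the GC and length correction (414 higher, 649 lower), and 0 in limma on log2(FPKM + 1) with no filter, where 4418 had an unadjusted p under 0.05. Leaving out each library gave 0 to 2332. Of the factors 4 were called, 2 in limma with a pseudocount of 1 and 2 with one of 0.1, 0 in limma with no filter, 2 after the GC and length correction, and 0 to 6 with a library left out. Past the threshold of the study lay 1358 genes, 783 in limma on log2(FPKM + 1), 782 with no filter, and 1120 to 1754 with a library left out, and 2 factors, 1 in DESeq2 and 1 after the GC and length correction, and 1 to 4 with a library left out. The ratio of *Airn* ran from 1.37 to 3.37 with a library left out. The cause of these differences was not tested.

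With the replicate number as a block, 4841 of the 13628 genes (2405 higher, 2436 lower) and 7 of the 10 factors were called. The factors added were *Sox7* (edgeR adjusted p = 9.06e-05), *Sox17* (0.0265) and *Lyl1* (0.0282). The block also called the markers *Alb* (edgeR adjusted p = 3.18e-05), *Cd3e* (0.0337) and *Krt19* (0.0232), all higher. It called 5 of the 10 partner factors (3 higher and 2 lower, *Hif1a* with an edgeR adjusted p of 0.0313). Of the 14 tested genes of the TAL1 complex and Id list it called 9 (1 higher and 8 lower). Deviations of same-numbered libraries correlated at 0.27 across 13628 genes, but the labels give them no shared animal or batch, so this is no pairing by design.

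Fold changes on the scale of library totals were followed for the 10 factors and the genes named by rule. Signs changed for genes with an edgeR adjusted p of 0.05 or more and for no called gene among these. Other called genes of the lists were not followed, *Id3*, *Efnb2*, *Vcam1*, *Flt4*, *Tie1*, *Nos3* and *S1pr1* among them. The scale of the pan-endothelial markers, on which the called factors *Erg* (0.08) and *Elk3* (0.24) have the other sign, is given above. *Tal1* was at 0.0092 in limma (at either pseudocount and with no filter) and 0.0189 after the GC and length correction, *Kit* at 0.0130 in limma (0.0133 with the pseudocount of 0.1), and *Hif1a* at -0.0052 after that correction. With a library left out, *Tal1* ran from -0.19 to 0.14, *Fli1* from -0.21 to 0.0673, *Ets2* from -0.0069 to 0.19, *Elf1* from -0.0139 to 0.22, *Sox4* from -0.0471 to 0.12, *Pf4* from -0.19 to 0.47, *Tagln* from -0.11 to 0.26, *Kit* from -0.10 to 0.0494 and *Ly6c2* from -0.50 to 0.46. Of the 4 called factors, *Sox18* kept its call in 9 of 10 alternatives other than leaving out a library, *Ets1* in 8, *Elk3* in 7 and *Erg* in 6. In fits that leave 1 library in a group, that library is assumed to vary like those of the other group. With 51 to 107 counts in a library, *Lyl1* is the factor whose value depth limits most.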
